A study of Homo sapiens with 26 samples.

Results

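Ribosome footprints of HEK293T cells were compared between 2 libraries treated with the NEBNext rRNA depletion kit and 2 libraries with no depletion. These 4 libraries, chosen by the depletion kit named in their labels, are part of a study of 26 libraries that compared ways of removing ribosomal RNA. The question was which kinds of mRNA gained or lost footprint reads with this kit. HEK293T is a human embryonic kidney line that carries the SV40 large T antigen. The labels give no treatment other than depletion. All groups were grown in DMEM with serum, lysed with cycloheximide, digested with RNase I and labelled with a size range of 15 to 35 nt. A further 2 Ribo-Zero Gold and 2 RiboCop libraries of the same cells and the same experiment entered the fit to estimate the spread. The labels do not say whether libraries of a group came from separate cultures, so p-values measure only the spread between these libraries, which may be technical.

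A ribosome shields a short stretch of the mRNA it is reading, and sequencing the shielded fragments shows which coding sequences ribosomes occupy. RNase digestion also breaks the ribosomes' own rRNA into fragments of similar length, which otherwise take up most reads. NEBNext hybridises DNA probes to rRNA and lets RNase H digest the RNA of the hybrids, so the digestion happens in the same tube as the footprints. Ribo-Zero Gold and RiboCop instead pull rRNA out of solution with probes bound to beads.

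Totals of reads on coding sequences were 120019 and 153462 in the undepleted libraries 1 and 2, and 133319 and 201080 in the NEBNext libraries 1 and 2. The bead kit libraries had 156200 to 421521. All 6 listed markers of HEK293 cells were above 0 in each of the 8 libraries, with a summed level of 1450 to 1870 counts scaled to a common library total (CPM). The 8 listed markers of K562, the leukaemia line used elsewhere in the study, summed to at most 1 read in any of the 8. In the K562 libraries fitted below, the 6 HEK293 markers summed to 1390 to 1560 CPM, so their sum does not separate the lines. Only 2 or 3 of the 6 were above 0 there. A CPM value is a share of its library, and in a bulk sample fewer cells of a kind and less RNA per cell cannot be told apart.

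Of 4410 genes tested with edgeR's quasi-likelihood test, 143 passed a Benjamini-Hochberg adjusted p under 0.05 (3.24%), of which 66 were higher (1.5%) and 77 lower (1.75%) with NEBNext. The NEBNext pair lay above both undepleted values for all 66 and below both for all 77 (931 genes, 21.1%, and 972 genes, 22.0%, of all tested did so), and outside all 6 other HEK293T libraries for 130 of them. Over all genes tested the NEBNext pair lay outside those 6 libraries for 20.6%. Of the 143 genes, 53 changed at least 2-fold. The same fit called 3 genes (0.068%) for Ribo-Zero Gold against undepleted and 0 (0.0%) for RiboCop, with 251 and 195 genes at an unadjusted p under 0.05. Each of these comparisons uses the same 2 undepleted libraries. The number of calls rested on the libraries: edgeR called 56 genes without NEBNext replicate 2, 80 without undepleted replicate 1, 82 without undepleted replicate 2 and 150 without NEBNext replicate 1, and DESeq2 on all libraries called 58. No called gene changed sign when 1 of these libraries was left out, which follows from the lack of overlap with undepleted and adds no support. Of the 143 genes 33 passed whichever of the 4 was left out, termed stable calls, and the other 110 failed without at least 1 of them.

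The genes that fell had coding sequences rich in purines (A and G) and poor in T, while the genes that rose lay closer to all tested genes in these shares. Among the called genes with a matched coding sequence, the 73 that fell had a median of 58.5% purines and 19.3% T. The 62 that rose had medians of 52.8% and 23.5%, against 53.4% and 22.2% over the 4284 tested genes with a matched coding sequence. The 60-nt windows below carry the most purines of 4 of the genes that fell and the most T of 4 that rose. They were read on the coding strand from GENCODE release 29 (GRCh38), and capitals mark runs of at least 6 purines in the first 4 and of at least 2 T in the last 4. The 4 genes that fell encode the nucleosome-binding protein HMGN1 (chr21:39342315-39349200, minus strand), the tubulin-folding cofactor TBCA (chr5:77691166-77776361, minus), the chromatin-associated growth factor HDGF (chr1:156742107-156751744, minus) and the MORF4-associated protein MRFAP1 (chr4:6640091-6642729, plus). The 4 genes that rose encode the cholesterol synthesis enzyme SC5D (chr11:121292453-121308694, plus), the multipass membrane protein SERINC1 (chr6:122443354-122471822, minus), cyclin G1 or CCNG1 (chr5:163437581-163445016, plus) and the zinc transporter SLC39A6 (chr18:36108532-36129318, minus). All windows are exonic coding sequence, and the coordinates are those of the transcripts.
HMGN1: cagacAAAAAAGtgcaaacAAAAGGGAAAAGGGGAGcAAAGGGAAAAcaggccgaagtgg
TBCA: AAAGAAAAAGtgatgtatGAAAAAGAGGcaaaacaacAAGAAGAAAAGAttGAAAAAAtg
HDGF: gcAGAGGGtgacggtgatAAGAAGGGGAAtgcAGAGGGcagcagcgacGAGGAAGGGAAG
MRFAP1: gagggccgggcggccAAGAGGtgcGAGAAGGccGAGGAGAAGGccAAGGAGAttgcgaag
SC5D: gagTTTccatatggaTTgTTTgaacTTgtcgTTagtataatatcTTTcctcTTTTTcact
SERINC1: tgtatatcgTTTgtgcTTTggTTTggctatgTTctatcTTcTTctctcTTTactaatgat
CCNG1: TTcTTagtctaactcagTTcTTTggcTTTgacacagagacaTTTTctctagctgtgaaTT
SLC39A6: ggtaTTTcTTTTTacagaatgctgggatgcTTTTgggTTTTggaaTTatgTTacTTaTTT
The purine windows hold 50, 50, 49 and 46 purines of 60 in the order shown, against a median of 44 for the richest window of a tested gene. The T windows hold 29, 32, 25 and 30 T, against a median of 23. The genes shown were picked from the largest falls for a high purine share and from the largest rises for a high T share. Windows richer than the median therefore follow from that choice and are examples only. Other large changes had poorer windows, such as MAPRE1, which fell, with 41 purines and LSM3, which rose, with 20 T.

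The shift with T content ran through the whole set of tested genes and not the called genes alone. The genes were divided into 5 equal bins by the T share of their coding sequence, from a median of 16.5% T in the lowest bin to 27.4% in the highest. The median log2 fold change against undepleted was -0.171, -0.111, -0.0079, 0.111 and 0.221 from the lowest bin to the highest, against a median of 0.0026 over all 4410 genes. Genes called lower numbered 29, 21, 13, 8 and 2 from the lowest bin to the highest. Genes called higher showed no such order, with 14, 4, 13, 18 and 13. For purines the pattern was uneven, with medians of 0.116, 0.0734, 0.0228, 0.0104 and -0.198. The drop lay mainly in the bin with most purines, where 9 genes were called higher and 43 lower.

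**Figure D1:**
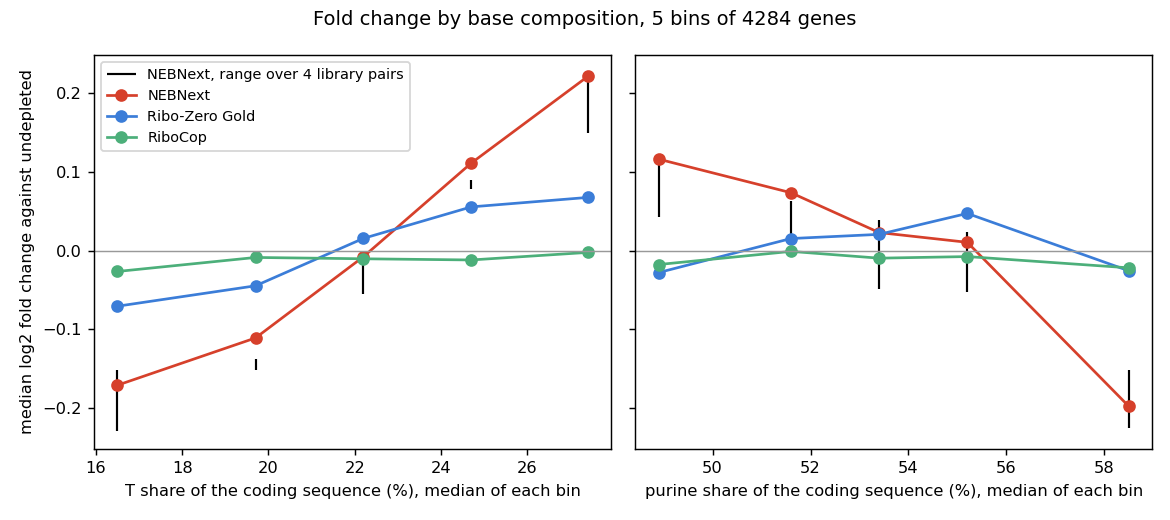
Median log2 fold change against the undepleted libraries (y axis) in 5 bins of the tested genes ordered by the T share (left) or purine share (right) of the coding sequence, in percent, for the 3 kits. Points are medians from the fit, and black bars span the NEBNext medians over the 4 pairs of a NEBNext and an undepleted library, computed from CPM with a pseudocount of 0.5. The NEBNext medians rise from -0.171 to 0.221 with T share and drop to -0.198 in the bin with most purines.

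The difference in median between the highest and the lowest bin of T share was 0.391 on the log2 scale with NEBNext, and it ranged from 0.305 to 0.455 over the 4 pairs of a NEBNext and an undepleted library. It was 0.138 for Ribo-Zero Gold and 0.0242 for RiboCop against the same undepleted libraries. The corresponding difference for purines was -0.314 with NEBNext, with a range of -0.344 to -0.197 over the 4 pairs. With Ribo-Zero Gold it was 0.00217 and with RiboCop -0.00421. Among the 344 genes that averaged 100 counts or more, Spearman's rho of the log2 fold change with T share was 0.27 for NEBNext. It was 0.32 with Ribo-Zero Gold and 0.13 with RiboCop, so both bead kits had a T trend of the same sign there. For purines rho was -0.33 with NEBNext, -0.11 with Ribo-Zero Gold and -0.1 with RiboCop over the same genes. All 3 kits share the undepleted libraries, and the differences between kits in these values were not tested. Leaving out the mitochondrially encoded genes gave 0.391 for T and -0.305 for purines.

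The same shift showed in the share of each library that these genes held. The bin of genes with most T held 14.98% and 14.82% of all counts in the undepleted libraries, and 16.73% and 17.02% in the NEBNext libraries. Both NEBNext values lay above those of the 6 other libraries, whose highest was 15.70% in a Ribo-Zero Gold library. The bin with most purines held 23.35% and 23.06% of counts without depletion and 20.81% and 20.46% with NEBNext. The bead kit libraries lay in between, with 22.76% as their lowest.

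With each share cut into 3 equal bins, the median was lower with more purines at low T and higher with more T at low purines. Among genes in the lowest bin for T and the highest for purines (517 genes), the median log2 fold change was -0.271, and 3 were called higher and 33 lower. Among genes in the highest bin for T and the lowest for purines (491), it was 0.293, with 17 called higher and 0 lower. Where both shares were in the highest bin (348 genes) the median was 0.0806, with 5 called higher and 4 lower, and where both were in the lowest bin (486) it was -0.0482, with 3 and 4.

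**Figure D2:**
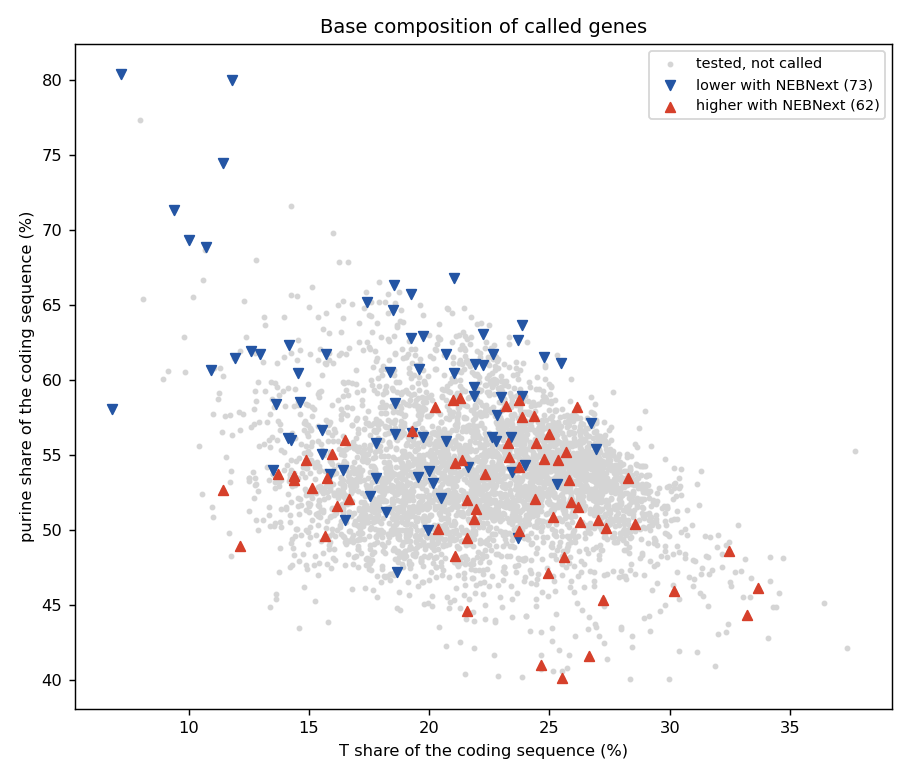
T share (x axis, percent) and purine share (y axis, percent) of the coding sequence of each tested gene. Blue triangles mark the 73 genes that fell and red triangles the 62 that rose with NEBNext, and grey points the genes not called. The lower genes extend to purine shares of up to 80.4% at low T, while the higher genes spread over the range of T shares.

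Codon classes followed the bases. Codons for aspartate and glutamate begin with GA, and the bin of genes with most of them had a median log2 fold change of -0.149, with 3 called higher and 39 lower. The bin with the fewest had a median of 0.104, with 33 called higher and 13 lower. Genes called higher had a median of 9.04% such codons and genes called lower 15.6%, against 12.5% over all. These acidic-codon-rich genes held 19.18% and 18.90% of counts in the undepleted libraries and 17.06% and 16.64% in the NEBNext libraries. Codons with T in the middle position mostly encode hydrophobic residues of membrane segments. The highest minus the lowest bin of their share differed by 0.326 with NEBNext, 0.125 with Ribo-Zero Gold and 0.0151 with RiboCop. Over the 344 genes with 100 counts or more, rho for this share was 0.23, 0.19 and 0.075 in that order. For G the difference was -0.342 with NEBNext and -0.111 with Ribo-Zero Gold, and for GC content it was -0.224 and -0.146. Among the 344 genes with 100 counts or more rho for G was -0.24 with NEBNext and -0.31 with Ribo-Zero Gold, and for GC content -0.092 and -0.24. Across the 4284 genes Spearman's rho with the log2 fold change was 0.29 for T, -0.25 for G, -0.2 for purines, 0.024 for A and 0.03 for coding length. Called genes were nonetheless short, with a median coding length of 480 nt for rises and 801 nt for falls, against 1380 nt over all. The shortest of 5 bins by coding length held 34 called higher and 31 lower, and the longest held 2 and 0. Genes are not independent replicates, these features depend on each other, and the values are descriptions.

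The largest falls were ordered by function, beginning with acidic chaperones, nucleolar and high-mobility-group proteins, which bind histones and nucleosomes. The table holds 26 such genes and 24 of them were tested. Of these, 9 fell while 0 rose, with a median log2 fold change of -0.404. Without PTMA, the gene of prothymosin alpha, 8 of 23 fell and the median was -0.318. The group held 1.41% and 1.43% of counts in the undepleted libraries, 1.24% to 1.41% in the 4 bead kit libraries and 1.06% and 1.01% in the NEBNext libraries. The NEBNext values were the 2 lowest of the 8 libraries. With PTMA left out they were 1.03% and 0.982%, against 1.31% and 1.33% without depletion and 1.19% to 1.33% with the bead kits. Of the 9 falls 4 were stable (ANP32A, NCL, NPM1 and PTMA). This group had the highest median purine share of the 30 gene classes examined, at 64.7%.

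ANP32A, an acidic phosphatase inhibitor, stood at 442 and 450 CPM in the undepleted libraries, at 347 to 403 in the bead kit libraries, and at 180.0 and 184 CPM in the NEBNext libraries. Its log2 fold change was -1.27 (SE 0.23, edgeR's quasi-likelihood test, Benjamini-Hochberg adjusted p = 6.52e-06). ANP32E, a histone chaperone, stood at 208 and 261 CPM without depletion and at 105 and 74.6 CPM with NEBNext, and its log2 fold change was -1.43 (SE 0.32, edgeR's test, adjusted p = 0.000561). Neither gene overlapped between NEBNext and any other HEK293T library. ANP32E failed without NEBNext replicate 2 or undepleted replicate 2. Their relative ANP32B did not pass, with a log2 fold change of -0.60.

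The HMGN proteins loosen chromatin by binding nucleosomes, and 3 of the 4 tested fell (a list added after the values were seen). The median log2 fold change of the 4 was -1.05 with NEBNext, -0.599 with Ribo-Zero Gold and -0.0719 with RiboCop. The HMGN genes summed to 999.8 and 1043 CPM without depletion and to 510.1 and 552 CPM with NEBNext. With Ribo-Zero Gold they summed to 748.5 and 709.3 CPM and with RiboCop to 889.9 and 1040 CPM, so a smaller fall was also seen with Ribo-Zero Gold. HMGN1 stood at 133 and 222 CPM without depletion and at 97.5 and 59.7 CPM with NEBNext, so that it changed by -1.26 (SE 0.35, edgeR adjusted p = 0.0143). HMGN5 fell by 1.99 on the log2 scale (SE 0.44, edgeR adjusted p = 0.000437), from 158 and 137 CPM to 45.0 and 29.8 CPM. HMGN5 has purines in 80.0% of its coding sequence. HMGN1 failed without NEBNext replicate 2 or undepleted replicate 2, and HMGN5 without NEBNext replicate 2.
HMGN2 fell by 0.67 on the log2 scale, and HMGN3 did not pass at -0.83. PTMS, which encodes the acidic protein parathymosin, fell by 2.29 (SE 0.64, edgeR adjusted p = 0.0154). It went from 83.3 and 97.7 CPM to 37.5 and 4.97 CPM, but stood at 28.5 and 30.8 CPM in the Ribo-Zero Gold libraries, so its values overlapped with those of a bead kit. PTMS failed without NEBNext replicate 2 or undepleted replicate 2, and HMGN2 without any 1 of the 4 libraries but NEBNext replicate 2. The abundant nucleolar proteins fell less. NCL, nucleolin, went from 2283 and 2202 CPM to 1298 and 1412 CPM, and NPM1, nucleophosmin, from 3274 and 3082 CPM to 2348 and 2143 CPM.
The list was not uniform, as HMGB1 and HMGB2, which have long acidic tails, did not pass at 0.19 and -0.11.

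The hnRNP and SR proteins package and splice nuclear RNA. Of 38 tested (39 in the table), 6 fell and 2 rose, with a median log2 fold change of -0.223. The group held 2.38% and 2.27% of counts without depletion and 1.98% and 1.86% with NEBNext, below the 2.19% to 2.30% of the bead kits. HNRNPA1, a splicing repressor, stood at 2400 and 2118 CPM without depletion, at 2111 to 2265 CPM with the bead kits and at 1388 and 1169 CPM with NEBNext. Its log2 fold change was -0.82 (SE 0.10, edgeR's quasi-likelihood test, adjusted p = 1.53e-12). HNRNPH3 fell by 1.01 and HNRNPA3 by 0.59 on the log2 scale. The falls of HNRNPA1 and HNRNPU were stable, and the other 4 failed without NEBNext replicate 2, HNRNPA3 without that library alone. An exception was TRA2A, a splicing activator with an arginine- and serine-rich domain, which rose from 150.0 and 176 CPM to 322 and 502 CPM. Its log2 fold change was 1.40 (SE 0.24, edgeR adjusted p = 2.08e-06). TRA2A failed without NEBNext replicate 2. HNRNPCL2 also rose, by 1.75, but it is a near copy of other hnRNP C genes, and how the authors assigned reads between copies is not given in the sources used here.

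HDGF had the largest fall by the naming rule, from 358 and 365 CPM to 142 and 124 CPM, against 206 to 276 CPM with the bead kits. Its log2 fold change was -1.44 (SE 0.26, edgeR adjusted p = 6.86e-06). ENSA, an inhibitor of the phosphatase PP2A, stood at 183 and 163 CPM and then at 45.0 and 84.5 CPM, a change of -1.30.
SUMO2, a protein modifier, went from 358 and 391 CPM to 120.0 and 199 CPM, and NEDD8, a relative of ubiquitin, fell by 1.69 on the log2 scale. NEDD8 failed without undepleted replicate 1 or either NEBNext library.
TBCA, which helps fold tubulin, went from 142 and 196 CPM to 90.0 and 59.7 CPM, and MAPRE1, which tracks growing microtubule ends, from 275 and 319 CPM to 97.5 and 164 CPM.
The other large falls were MRFAP1 (log2 fold change -1.13), SMARCB1, a subunit of the SWI/SNF chromatin remodeller (-1.06), and the transcription factor YY1 (-1.26). HDGF, SUMO2 and ANP32A were stable among the 11 largest falls described here. SMARCB1 failed without any 1 of the 4 libraries, and the rest without 2 or 3 of them. Of these 11 falls 10 had a matched coding sequence, and MAPRE1 had the smallest purine share of these, at 56.2%.

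**Figure D3:**
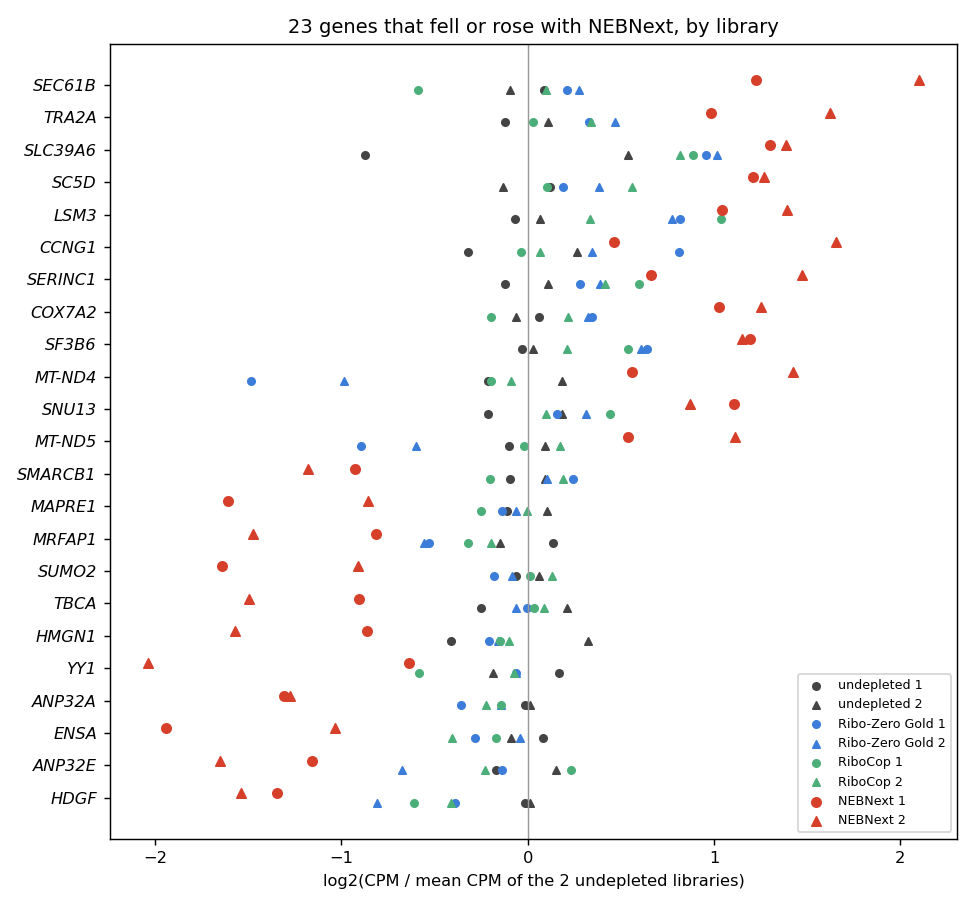
CPM of 23 genes among those with the largest called rises and falls, in each of the 8 libraries, as log2 of the ratio to the mean of the 2 undepleted libraries (x axis), with 1 row per gene. Circles are replicate 1 and triangles replicate 2 of each group. The NEBNext points lie outside all 6 other libraries for 22 of the 23 genes, the exception being CCNG1.

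Proteins that carry other proteins into the endoplasmic reticulum (ER) and attach N-glycans there moved the opposite way. Of 27 tested (28 in the table), 4 rose and 0 fell, with a median log2 fold change of 0.209 and values above 0 in 20. The group held 0.551% and 0.570% of counts without depletion, 0.579% to 0.594% with the bead kits and 0.682% and 0.744% with NEBNext. SEC61B, a small subunit of the channel that passes proteins across the ER membrane, had the largest rise by the naming rule. It stood at 133 and 117 CPM without depletion, at 83.2 to 152 CPM with the bead kits and at 292 and 537 CPM with NEBNext. Its log2 fold change was 1.82 (SE 0.26, edgeR's quasi-likelihood test, adjusted p = 9.82e-10). The oligosaccharyltransferase subunits STT3A and RPN2 rose by 0.67 and 0.59 on the log2 scale, but both overlapped with bead kit libraries. The call of SEC61B was stable, while STT3A, RPN2 and SRP9 failed without NEBNext replicate 2 or either undepleted library. SRP9, a subunit of the signal recognition particle, rose from 317 and 365 CPM to 480.1 and 547 CPM. SEC61A1, the large membrane-spanning subunit of the same channel, did not pass at 0.01, nor did SEC61G at 0.19. The ER-lumenal chaperones and disulfide isomerases did not share this direction in their median, which was -0.142. Of these 12 genes 0 were called, against 3.24% of all genes tested, so the count of calls says little about so small a class.

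Solute carriers of the plasma membrane and vesicles had the highest median T share of the 30 classes, 27.1%. Only 44 of the 315 in the table passed the filter on low counts, which limits what their values describe. Of these 44, 1 rose (a share near the 1.5% over all genes) and 0 fell, and the median log2 fold change was 0.259. Carriers, import pores and channels of the mitochondrion had a median of -0.0941, with 0 of 35 called. The summed share over all 315, which needs no filter, was 0.592% and 0.618% without depletion, 0.607% to 0.637% with the bead kits and 0.731% and 0.710% with NEBNext.
The gene that rose was SLC39A6, at 41.7 and 111 CPM without depletion, 134 to 154 CPM with the bead kits and 188 and 199 CPM with NEBNext, and its undepleted values were far apart. Its log2 fold change was 1.28 (SE 0.34, edgeR adjusted p = 0.00919). SERINC1 rose from 183 and 215 CPM to 315 and 552 CPM, by 1.19. SC5D went from 117 and 97.7 CPM to 248 and 259 CPM, a log2 fold change of 1.27. SLC39A6 and SC5D failed without NEBNext replicate 2 and without 1 undepleted library, and SERINC1 without NEBNext replicate 2. SC5D was the only called gene of the 20 cholesterol genes tested, whose median was 0.0706 and ran from -0.262 to 0.291 over the 4 pairs of a NEBNext and an undepleted library.

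Mitochondrially encoded mRNAs, which are translated by ribosomes inside the mitochondrion and encode membrane subunits of the respiratory chain, had the highest class median. Of 11 tested (13 in the table) 4 rose and 0 fell, and the median log2 fold change was 0.604. MT-ND5 stood at 399.9 and 456 CPM without depletion and at 623 and 925 CPM with NEBNext, so that it changed by 0.91 on the log2 scale (SE 0.17, edgeR adjusted p = 8.55e-06). MT-ND4 stood at 158 and 208 CPM and then at 270.0 and 492 CPM, a change of 1.12.
MT-CO3 and MT-ATP8 rose by 0.86 and 0.90. MT-CO3 was the 1 stable call, and MT-ND4, MT-ND5 and MT-ATP8 failed without NEBNext replicate 2. MT-ND6 had a value of -0.71 and did not pass. Together the 13 mRNAs held 0.411% and 0.450% of counts without depletion, and 0.503% and 0.723% with NEBNext. The NEBNext libraries differed from each other: the class median was 0.985 without NEBNext replicate 1 and 0.165 without NEBNext replicate 2. The share was 0.392% and 0.460% with RiboCop and 0.287% and 0.308% with Ribo-Zero Gold, lower than in either undepleted library.
Nuclear-encoded subunits of the respiratory chain did not share this rise in their median, which was 0.0643. Of 81 tested 2 rose and 2 fell, shares near the 1.5% and 1.75% over all genes. COX7A2, a small subunit of cytochrome c oxidase, was one of those that rose, from 192 and 176 CPM to 375 and 438 CPM (log2 fold change 1.19, SE 0.24, edgeR adjusted p = 8.39e-05), and its call was stable. COX7B rose by 0.87, while UQCRB and NDUFA3 fell by 0.88 and 1.54, and each of these 3 calls failed without 2 or 3 of the 4 libraries.

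**Figure D4:**
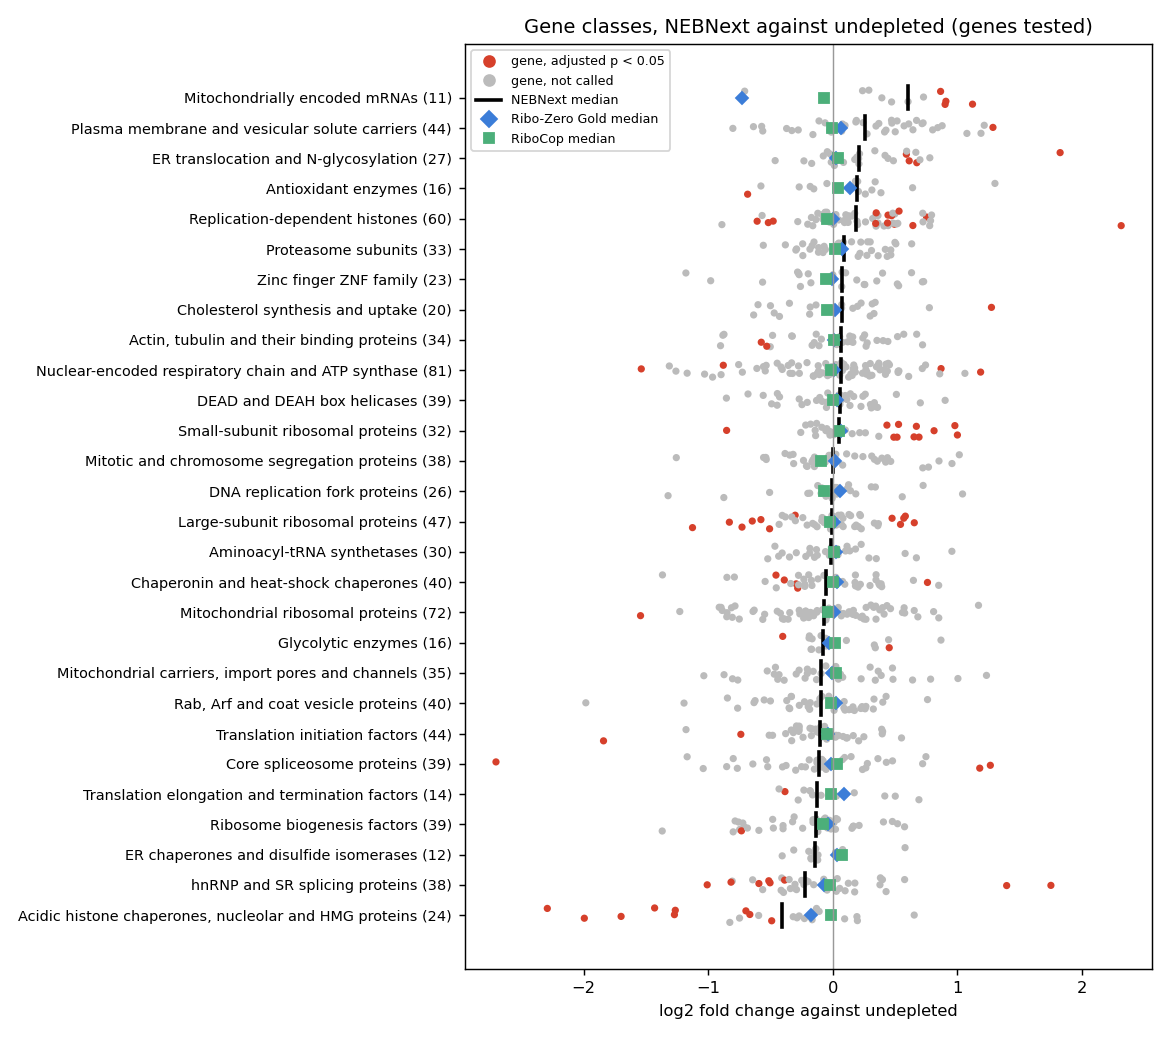
Log2 fold change of each tested gene with NEBNext against undepleted (x axis) for the gene classes with at least 10 genes tested, ordered by median, with the number tested in brackets. Red points passed the adjusted p threshold, grey points did not, black bars are NEBNext medians, and blue diamonds and green squares are the medians for Ribo-Zero Gold and RiboCop against the same undepleted libraries. Medians run from -0.404 for the acidic chaperone class to 0.604 for the mitochondrial mRNAs.

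Cytosolic ribosomal proteins were called in both directions. Of 32 small-subunit genes 10 rose and 1 fell, and of 47 large-subunit genes 5 rose and 7 fell. These counts include RPS13, RPS29 and RPL32, without which 8 of 30 rose and 1 fell in the small subunit and 5 of 46 rose and 6 fell in the large. The class medians were close to that of all genes, at 0.0529 and -0.00739. Small-subunit genes held 4.13% and 4.18% of counts without depletion, 4.16% to 4.29% with the bead kits and 4.64% and 4.75% with NEBNext, and without RPS13 and RPS29 the NEBNext shares were 4.37% and 4.44%, above the 4.0% to 4.12% of the other 6 libraries. The shares of large-subunit genes overlapped (6.47% and 6.73% without depletion, up to 6.68% with NEBNext). RPS15A rose from 1025 and 925 CPM to 1688 and 1681 CPM, by 0.81 on the log2 scale (SE 0.12, edgeR adjusted p = 1.65e-09).
RPS24 was the 1 small-subunit gene that fell, from 1333 and 1323 CPM to 720.1 and 731 CPM, by 0.85 (SE 0.13, edgeR adjusted p = 1.36e-08). In the large subunit RPL34 rose by 0.65, RPL39 by 0.58 and RPL35A by 0.57. RPL37 fell by 0.83 and RPL19 by 0.73. RPL19 went from 1791 and 2046 CPM to 1163 and 1144 CPM, and the 4 bead kit libraries held 1601 to 1845 CPM. Stable calls numbered 5 of the 10 small-subunit rises, 3 of the 5 large-subunit rises and 3 of the 7 large-subunit falls, and RPS24, RPS15A, RPL19, RPL35A and RPL37 were among them. These genes have many processed pseudogenes, and their values are uncertain to the extent that reads were split with copies.

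Calls among the replication-dependent histone genes differed by the kind of histone. Of 60 tested (72 in the table) 10 rose and 3 fell, with a median log2 fold change of 0.185. By lists added after the values were seen, H2A genes had 6 of 16 higher and 0 lower, H4 genes 4 of 12 higher and 0 lower, H2B genes 0 of 16 higher and 3 lower, and 0 of 12 H3 genes were called. Median log2 fold changes were 0.38 for H2A, 0.291 for H4, 0.149 for H3 and -0.0287 for H2B, against 0.0026 over all genes. The H2B median ran from -0.245 to 0.0812 over the 4 pairs of a NEBNext and an undepleted library, so H2B genes did not clearly fall as a kind. H2A genes held 1.13% and 1.12% of counts without depletion and 1.31% and 1.46% with NEBNext. H2B genes held 1.01% and 1.06% and then 0.891% and 0.941%. The bead kits stayed at 0.999% to 1.11% for H2A and 1.01% to 1.05% for H2B.
HIST1H2AM rose from 833 and 775 CPM to 1073 and 1522 CPM (log2 fold change 0.75, SE 0.13, edgeR adjusted p = 8.89e-07). HIST1H2BD fell from 1208 and 1095 CPM to 818 and 691 CPM (-0.61, SE 0.13, edgeR adjusted p = 0.000444). The 2 genes have T shares of 15.1% and 15.9% and purine shares of 52.8% and 53.7%. Why they moved in opposite directions was not tested. The variants H2AFZ and H3F3A, outside the list and named after their values were seen, rose by 0.70 and 0.60. HIST1H4I, which rose by 2.31, was the 1 stable call of the 13, and HIST1H2AM and HIST1H2BD failed without NEBNext replicate 2. Histone genes are near-identical copies of each other, so the value of a single copy is uncertain and the summed shares are less affected.

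**Figure D5:**
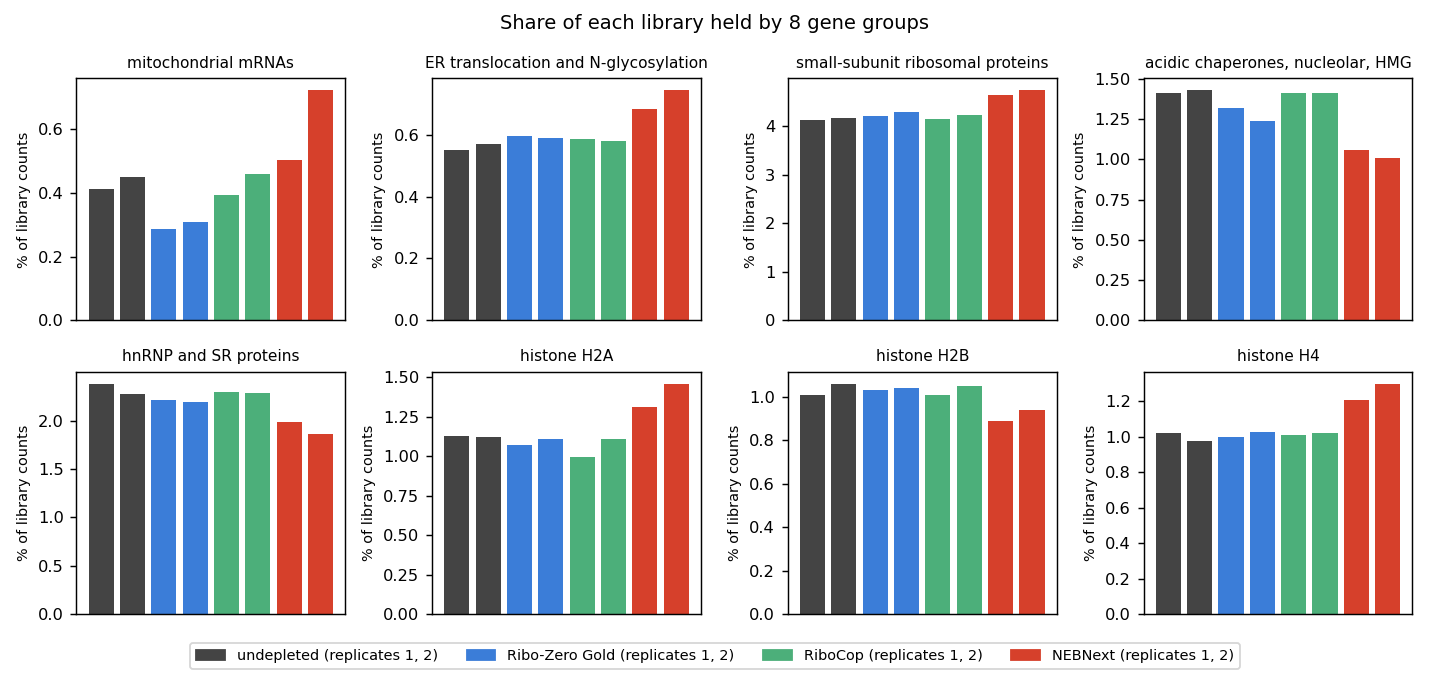
Percent of all counts of a library (y axis, from 0) held by 8 gene groups, with 1 bar per library and 2 libraries per kit. Mitochondrial mRNAs, ER translocation, small-subunit ribosomal proteins, H2A and H4 are highest in the NEBNext libraries, while acidic chaperones, hnRNP and SR proteins and H2B are lowest there.

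Other classes gave few calls. Core spliceosome proteins had 2 higher and 1 lower of 39, with LSM3 and SF3B6, a branch-site-binding subunit, rising by 1.26 and 1.18 and LSM5 having a log2 fold change of -2.70 and also passing. SF3B6 stood at 125 and 130.3 CPM without depletion, at 148 to 199 CPM with the bead kits and at 292 and 284 CPM with NEBNext. LSM3 stood at 83.3 and 91.2 CPM, at 110 to 179 CPM and at 180 and 229 CPM in the same order. For both genes the bead kit libraries thus also lay above the undepleted ones. Of 40 cytosolic and mitochondrial chaperones 4 fell (HSPA1A, HSPA1B, HSP90AA1 and HSP90AB1, by 0.28 to 0.46) and HSPE1 rose by 0.76. HSPA1A and HSPA1B are near-identical copies. Of the elongation factors EEF2 fell by 0.38, and of the initiation factors EIF3J fell by 1.84 and EIF1AX by 0.74. Among glycolytic enzymes GAPDH rose by 0.45 (4666 and 4275 CPM to 6158 and 5923 CPM), while LDHB fell by 0.40. FBL, which methylates rRNA, was the 1 called gene of 39 ribosome biogenesis factors and fell by 0.73, and the class median was -0.134. Among 33 proteasome subunits, 30 aminoacyl-tRNA synthetases, 26 DNA replication fork proteins and 39 DEAD and DEAH box helicases, 0 genes were called by edgeR. GAPDH and HSPE1 were stable calls, and the other called genes of these classes failed without 1 or more of the 4 libraries. The 30 classes held 985 of the tested genes and 85 of the 143 called, and 19 had at least 1 call. Calls were concentrated in well-counted genes, as 99 of the 143 lay among the 885 genes averaging 50 counts or more. All 47 large-subunit and 32 small-subunit ribosomal protein genes were among those 885. The calls of a class were not set against genes of like counts, so the numbers called do not compare classes.

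The same kit was also used in K562, in libraries of 2 other size ranges (20 to 34 nt and 20 to 60 nt), where 100 of 4625 genes were called (2.16%). The undepleted K562 libraries are undepleted by their titles, but carry another label that names NEBNext, so every direction there rests on the titles. Of the 11 large falls described in HEK293T, 11 were tested in K562, 10 had the same sign and ANP32A was called lower there (log2 fold change -1.03, edgeR adjusted p = 0.00369). Of the 12 largest rises, 11 were tested, 9 had the same sign and 3 were called, SNU13 at 1.66, COX7A2 at 1.34 and MT-ND5 at 0.55. YY1, SC5D and LSM3 had the opposite sign without passing, SC5D at -0.09 (SE 0.70). Reads were few in the undepleted 20 to 60 nt library, where the 11 falls had 2 (TBCA) to 21 (ANP32A) each and SC5D had 1. The share of all tested genes with the same sign was not computed, so the counts of matching signs have no background beside them. SNU13, which binds box C/D and U4 RNAs, stood at 183 and 241 CPM in the undepleted HEK293T libraries and at 458 and 388 CPM with NEBNext. The difference between the highest and lowest bin in K562 was 0.2 for T and -0.164 for purines. Class medians in K562 were -0.32 for acidic chaperones, 0.551 for mitochondrial mRNAs, 0.282 for solute carriers and 0.177 for histones, with the sign seen in HEK293T. For ER translocation the K562 median was only 0.0305, against 0.209 in HEK293T. For hnRNP and SR proteins it was 0.0582, opposite in sign to the -0.223 in HEK293T.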

How the data were processed

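Per the file headers, the deposited table gives raw read counts for the coding sequences of 19478 transcripts. STAR and CASAVA 1.8 are named in the submitters' processing notes, without their settings. Handling of duplicate and multiply mapping reads is not given in the sources used here, so intervals cover counting error only. Samples were grouped by the kit in their labels. The gene lists, naming rule and feature bins were chosen with earlier results of these data known.

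Counts of all 8 HEK293T libraries entered 1 fit with edgeR 4.0.16 (R 4.3.3): TMM normalization, filterByExpr at its default minimum count of 10, the quasi-likelihood test and Benjamini-Hochberg adjustment over 4410 genes. K562 was fitted with depletion and size as terms, with 1 library per combination. Named genes are the 12 largest rises and 12 largest falls among called genes that averaged 30 counts or more and had no overlap with undepleted, leaving out PTMA, RPS13, RPS29, RPL32 and FAM53A, plus up to 3 called members per class and direction. 1 of these falls is not reported here. Others were named after their values were seen. Base shares came from GENCODE release 29 coding sequences, matched by versioned identifier for 97.28% of rows. It may not be the authors' annotation. Matches to rRNA were not analysed here. Classes and bins are described without a test. In data simulated for this comparison over 4410 genes with 200 changed, 82% of 4-fold and 35% of 2-fold changes were recovered, and 4.1% of calls were false. Alternatives were DESeq2 1.42.0, other scalings, filters, bins and left-out libraries.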

Additional observations from a re-analysis of the deposited data

Results flagged for a closer look

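A fit of the HEK293T and K562 libraries with an interaction term, added after the data were seen, tested whether the NEBNext effect differed between the experiments. Cell line, size selection and experiment change together in it, so they cannot be told apart, and every K562 direction rests on the titles. By edgeR's quasi-likelihood test 18 of 5718 genes passed (0.315%), and 9 of them were also called in HEK293T, of which 8 are given here. The HEK293T effect minus the K562 effect, on the log2 scale, was 0.94 for RPS13 and 0.76 for RPL35A, which rose in HEK293T and had values of -0.01 and -0.25 in K562. It was -1.23 for RPL32, -0.86 for CFL1 and -2.15 for EIF3J, which fell in HEK293T and did not pass in K562. HSPE1 differed by 1.48, with 0.76 in HEK293T and -0.75 in K562. The histone gene HIST1H4C differed by -0.80 because its rise was larger in K562, at 1.26 against 0.53. LTBP1 differed by 3.44 and had few reads, with 2 in the undepleted and 30 in the NEBNext HEK293T libraries.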

How the results depend on the processing

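DESeq2 called 58 genes (29 higher, 29 lower), all among edgeR's 143. Leaving out 1 library gave 56 to 150 calls, with 28 to 78 higher and 28 to 72 lower. Calls numbered 142 with total count scaling (60 higher, 82 lower), 108 with no filter on low counts, 153 among genes averaging 50 counts or more and 117 with the NEBNext and undepleted libraries alone. With the replicate number as a block edgeR called 154 genes (73 higher, 81 lower), of which 142 were among the 143. The labels do not say that a number marks a shared sample, and deviations of same-numbered libraries correlated across 369 genes at 0.0644 for undepleted and NEBNext and at 0.0933 to 0.137 for the other pairs of groups, so the numbers were not read as a pairing.

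Among the 23 genes shown for the largest changes, calls lost were 4 with DESeq2, 5 with no filter, 3 without NEBNext replicate 1, 14 without NEBNext replicate 2, 10 without undepleted replicate 1 and 10 without undepleted replicate 2.

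Of 29 class medians 13 kept their sign under all 11 alternatives and 16 did not, among them large-subunit ribosomal proteins and cholesterol genes. With 1 library left out they ran from 0.165 to 0.985 for mitochondrial mRNAs, -0.0477 to 0.025 for large-subunit and 0.0369 to 0.102 for small-subunit ribosomal proteins, 0.244 to 0.337 for ER translocation, 0.191 to 0.318 for solute carriers, 0.124 to 0.243 for histones, -0.481 to -0.316 for acidic chaperones, -0.195 to -0.151 for ribosome biogenesis and -0.257 to -0.152 for hnRNP and SR proteins. With a mean of at least 50 counts they were 0.587 for ER translocation (9 genes), 0.0643 for solute carriers (3), 0.115 for histones, -0.285 for acidic chaperones, -0.078 for ribosome biogenesis and -0.298 for hnRNP and SR proteins. With no filter they were 0.109 for solute carriers and -0.535 for acidic chaperones. With the 4 compared libraries alone they were 0.0354 for small-subunit proteins, 0.403 for solute carriers and 0.138 for histones, and small-subunit proteins had 0.0361 with total count scaling. Medians that changed sign by more than the spread over library pairs were those of initiation factors (-0.117 to 0.0143 with 1 library left out), elongation and termination factors (-0.167 to 0.00484), heat-shock chaperones (-0.0298 to 0.0555, and 0.045 with at least 50 counts), nuclear-encoded respiratory chain (-0.0356 to 0.0684), serine and folate synthesis (-0.111 to 0.153), DEAD and DEAH box helicases (-0.0122 to 0.059, -0.00173 with at least 50 counts and -0.0394 with the 4 compared libraries alone) and Rab, Arf and coat proteins (-0.238 to 0.0159, and 0.105 with at least 50 counts). With no filter the medians of heat-shock chaperones, Rab, Arf and coat proteins and ZNF genes were 0.0. The filters differ in the genes kept, and other causes were not tested.

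The highest minus the lowest of 5 bins stayed between 0.382 and 0.455 for T and between -0.339 and -0.24 for purines with 1 library left out. For T it was 0.321 with the minimum of 50 counts. With 3 equal bins it was 0.324 for T and -0.219 for purines. These libraries hold few counts, and a gene with a small change would not be detectable at this depth.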

Other observations

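Outside the naming rule, 2 genes with very few undepleted reads were much higher with NEBNext and were chosen after their values were seen. HMX3, a homeobox factor, had 1 read over both undepleted libraries and 38 over both NEBNext libraries, a ratio of 31.1 after scaling by library total (95% exact interval 5.25 to 1260.0, counting error only). LTBP1, a latent TGF-beta binding protein, had 2 and 30 reads, a ratio of 12.3 (3.11 to 106.0), and its call failed without undepleted replicate 2. Whether these reads spread along the coding sequence or pile up at 1 place was not analysed here.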
